A study of Mus musculus with 4 samples.

Results

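Interferon-stimulated genes are the genes that cells switch on when interferon reaches them. A set of 45 of them, of 14043 genes in the tables, was read in regulatory T (Treg) cells sorted from mouse spleen. Of these, 42 were found by their symbol in the gene column. The other 3 were found by transcript accession: Gbp7 stood under its older symbol Gbp6, and Mx1 and Mx2 stood under accession numbers alone. For each gene the transcript row of highest mean was used. In 2 libraries Nsd2 had been knocked out conditionally in Treg cells (cKO), and 2 libraries were wild type (WT), all of C57BL/6 mice. Nsd2 methylates lysine 36 of histone H3. The RNA of at least 3 mice was mixed for a library, so p-values measure the spread between 2 pools per genotype, which may be partly technical. The sources used here give neither the age and sex of the mice nor the Cre driver and the exons deleted. The comparison asks whether interferon-stimulated genes stand at another level in Treg cells without Nsd2.

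Type I interferons signal through the receptor chains Ifnar1 and Ifnar2 and the kinases Jak1 and Tyk2 to a complex that holds Stat2 and Irf9 and binds the interferon-stimulated response element (ISRE). Interferon gamma acts through Ifngr1 and Ifngr2 and is a strong inducer of the immunity-related GTPases (IRG) and guanylate-binding proteins (GBP). T cells also hold a basal level of many of these genes without infection. The genes were split by role into 7 groups: 3 signalling and transcription factors, 4 nucleic acid sensors, 6 genes of the oligoadenylate synthetase (OAS) family and the kinase PKR, 10 antiviral effectors, 8 IRG and GBP GTPases, 6 genes of the ISG15 system with ubiquitin ligases and PARPs, and 8 other interferon-induced genes.

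Promoters are shown first, because the response element is what many of these genes share. RefSeq promoters of GRCm38.p6, from 250 bases before to 50 bases after the transcription start, were found for 34 of the 45 genes. The ISRE core, searched on both strands as GAAA, any 2 bases and GAAA again, was present in 17 of these 34 genes (50%), against 3.99% of all 27025 genes with a promoter. The STAT site TTCNNNGAA was present in 10 of 34 (29.4%), against 9.55% of all genes, and 6 of the 34 held both. Matches of either motif were counted also where they overlapped another match. The core was found in 6 of 7 GTPases, 3 of 5 genes of the OAS and PKR group, 4 of 8 antiviral effectors, both sensors with a promoter, 1 of 3 signalling factors, 1 of 3 genes of the ISG15 group and 0 of 6 other interferon-induced genes. The promoters shown here belong to the 5 most abundant genes with an ISRE core, and to Isg15, which was added after its values were seen because its level had one of the 2 lowest p-values. Letters of the ISRE core on either strand are in capitals, and overlapping matches run together.
Igtp (chr11:58199306-58199605, plus strand): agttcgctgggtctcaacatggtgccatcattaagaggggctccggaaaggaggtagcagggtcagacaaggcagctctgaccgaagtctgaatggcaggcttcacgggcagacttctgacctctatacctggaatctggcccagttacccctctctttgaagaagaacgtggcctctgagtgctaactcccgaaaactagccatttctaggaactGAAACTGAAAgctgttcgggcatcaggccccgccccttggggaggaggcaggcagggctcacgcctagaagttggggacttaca
Bst2 (chr8:71537423-71537722, minus strand): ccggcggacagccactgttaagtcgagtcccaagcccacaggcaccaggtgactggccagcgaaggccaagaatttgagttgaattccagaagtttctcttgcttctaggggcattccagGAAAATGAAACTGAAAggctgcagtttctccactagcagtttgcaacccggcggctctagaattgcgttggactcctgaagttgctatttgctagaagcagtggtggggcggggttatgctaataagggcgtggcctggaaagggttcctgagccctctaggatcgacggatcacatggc
Gbp7 (chr3:142530086-142530385, plus strand): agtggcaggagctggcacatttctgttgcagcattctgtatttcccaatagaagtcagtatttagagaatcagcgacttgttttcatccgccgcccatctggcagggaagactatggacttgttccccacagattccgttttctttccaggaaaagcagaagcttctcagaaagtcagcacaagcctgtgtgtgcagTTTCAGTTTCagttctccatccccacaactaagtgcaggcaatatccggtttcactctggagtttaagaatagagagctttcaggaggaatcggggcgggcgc
Irgm1 (chr11:48871371-48871670, minus strand): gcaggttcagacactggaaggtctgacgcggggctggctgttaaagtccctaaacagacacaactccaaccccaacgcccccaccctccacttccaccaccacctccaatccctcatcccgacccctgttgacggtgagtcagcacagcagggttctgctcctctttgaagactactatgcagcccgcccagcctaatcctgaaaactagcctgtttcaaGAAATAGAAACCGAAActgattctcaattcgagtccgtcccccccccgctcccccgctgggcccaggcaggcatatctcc
Gbp2 (chr3:142620413-142620712, plus strand): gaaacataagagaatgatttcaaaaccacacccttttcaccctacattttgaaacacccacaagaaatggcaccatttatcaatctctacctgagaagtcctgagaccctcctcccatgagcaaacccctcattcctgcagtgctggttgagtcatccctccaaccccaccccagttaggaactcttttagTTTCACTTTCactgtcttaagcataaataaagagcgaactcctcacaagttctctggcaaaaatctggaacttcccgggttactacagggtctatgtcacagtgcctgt
Isg15 (chr4:156200769-156201068, minus strand): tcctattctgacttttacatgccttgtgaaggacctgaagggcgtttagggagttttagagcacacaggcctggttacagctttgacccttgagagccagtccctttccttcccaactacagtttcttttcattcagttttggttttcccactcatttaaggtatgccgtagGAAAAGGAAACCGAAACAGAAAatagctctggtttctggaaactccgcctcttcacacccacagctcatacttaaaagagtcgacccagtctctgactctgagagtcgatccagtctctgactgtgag
The match nearest to the start lay 14 bases before it in Irgm1, 24 in Igtp, 43 in Gbp7, 49 in Gbp2, 56 in Isg15 and 114 in Bst2. In Isg15 the capitals hold 3 overlapping matches, and in Irgm1 and Bst2 they hold 2. A match of letters is a description and not a measured binding site.

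The deposited values are RPKM, reads scaled by transcript length and by library depth. The depth read from the steps between low values was 19090000 and 21320000 reads in the cKO libraries and 19460000 and 19070000 in the WT libraries. At this depth 1 RPKM on a transcript of 2 kb stood for 38.1 to 42.6 reads. Nsd2 itself stood at 3.46 and 4.27 RPKM in cKO libraries, against 6.82 and 7.44 RPKM in WT libraries, so both cKO libraries were lower, with transcript remaining. The log2 fold change was -0.74 (standard error 0.15), and the targeted gene itself did not pass limma's test over all genes (adjusted p 0.9998), so with 2 libraries a genotype a difference of this size can be missed. The 6 Treg and T cell markers checked (Foxp3, Il2ra, Ctla4, Ikzf2, Cd3e and Cd4) summed to 836 and 919 RPKM in cKO and 841 and 892 RPKM in WT, and the groups overlapped for each of them. In bulk RNA, a change in the share of cells that make a transcript and a change in the amount per cell cannot be told apart.

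All 45 genes were detected in every library, over a range from 0.455 RPKM (Ifi44) to 229 RPKM (Samhd1) in the mean of all 4 libraries. The 45 values summed to 1542 and 1592 RPKM in cKO libraries and to 1526 and 1514 RPKM in WT libraries. The GTPases stood high as a group, with a median of 37.6 RPKM in cKO and 38.6 RPKM in WT. The OAS and PKR group stood lowest, with medians of 5.77 RPKM in cKO and 5.28 RPKM in WT. The antiviral effectors spanned the range from Mx2 at 1.39 RPKM to Samhd1 at 229 RPKM. The 5 most abundant genes were Samhd1, Ifi27l2a, Ifi47, Sp100 and Igtp. Of these, Ifi47, Sp100 and Igtp had means of 107, 103 and 99.3 RPKM and libraries that overlapped each other, so their order was not resolved. At the low end, Ifi44 rested on an estimated 19 and 30 reads in cKO and 25 and 31 reads in WT, and it was the only one of the 45 under the mean of 1 RPKM required for testing.

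**Figure D1:**
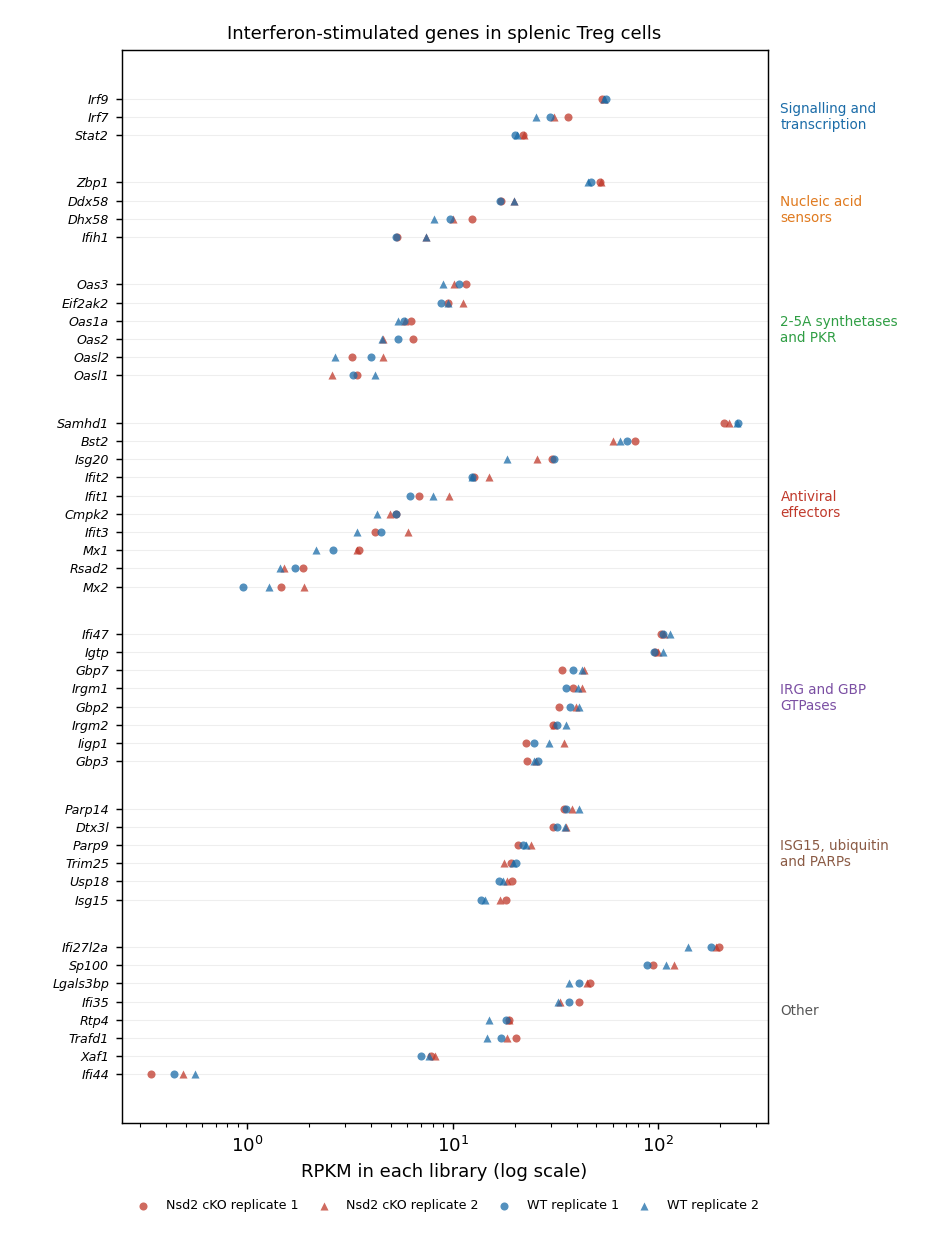
RPKM (log scale) of the 45 interferon-stimulated genes in each of the 4 libraries, by role and, within a role, by mean level. Red marks are Nsd2 cKO, blue marks WT, circles replicate 1 and triangles replicate 2. The GTPases lie between 22.8 and 114 RPKM in every library, while the antiviral effectors spread from under 1 RPKM to 245 RPKM.

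No interferon-stimulated gene passed the test between cKO and WT Treg cells. Of the 44 tested in a limma fit over 10632 genes on log2(RPKM + 1), 0 had an adjusted p under 0.05, and over all genes 0 did (0.00%). The adjusted p was 0.9998 for each of the 44. An unadjusted p under 0.05 was reached by 2 of the 44, Mx1 and Isg15, both higher in cKO, against 332 of all genes (3.12%). The lower cKO library was above the higher WT library for 15 of the 44 (34.1%), against 17.4% of all genes, and the genotypes were separate in the other direction for 3 (6.82%), against 9.04% of all genes. The log2 fold change was above 0 for 30 of the 44 (68.2%), against 59.2% of all genes. That count was 31 without cKO replicate 1, 25 without cKO replicate 2, 26 without WT replicate 1 and 30 without WT replicate 2. The median log2 fold change was 0.10 over the 44 and 0.029 over all genes. All 44 were read from the same 4 libraries, so these shares describe the set and are not a test of it. The standard error of single genes ran from 0.11 to 0.25 on the log2 scale. The 95% intervals reached as low as -0.69 (Oasl1) and as high as 0.84 (Isg20), so differences of such size were not resolved for the less precise genes.

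**Figure D2:**
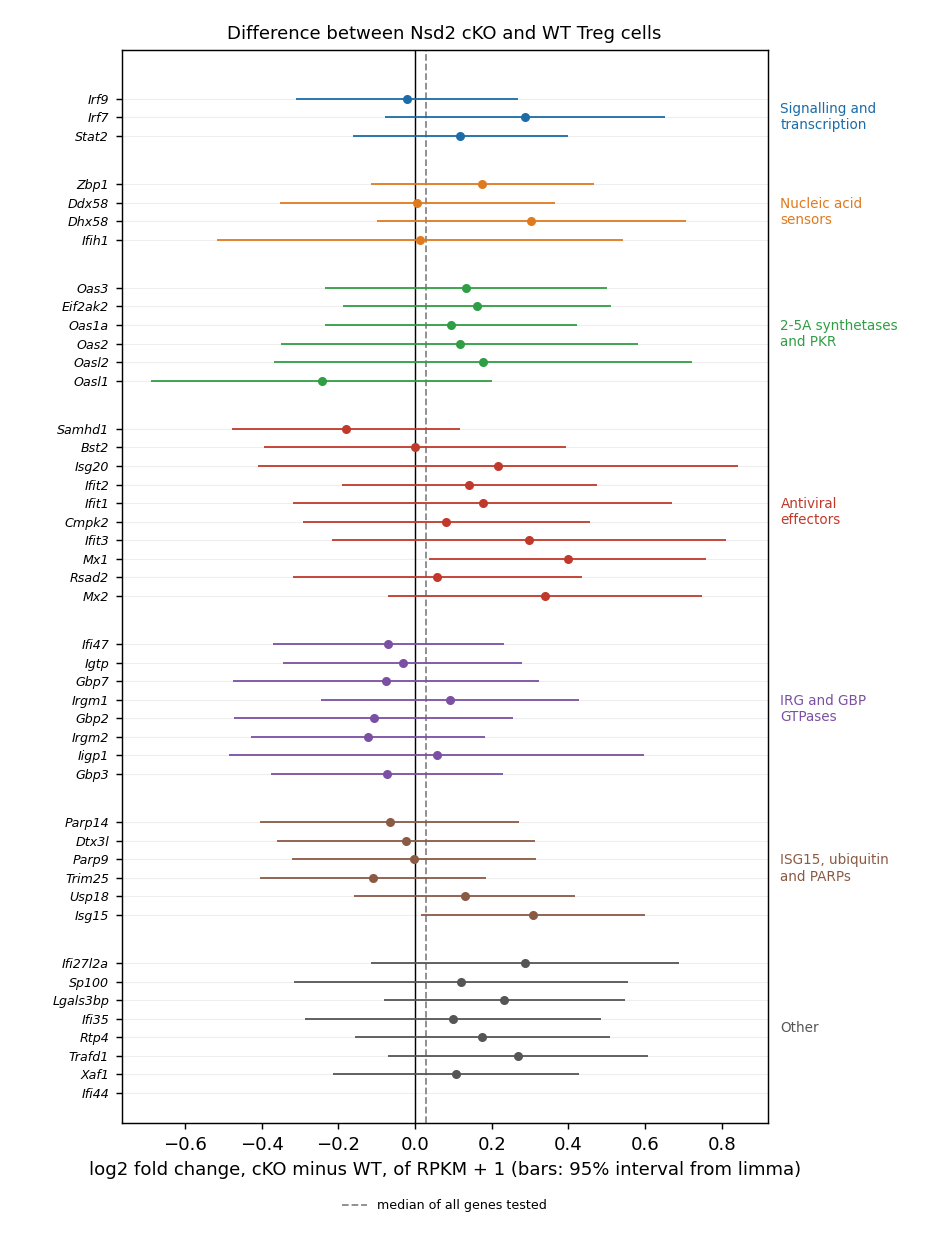
Log2 fold change, cKO minus WT, of RPKM + 1 for the 44 genes tested, with 95% intervals from limma, by role. The solid line marks 0 and the dashed line the median of all genes tested (0.029). Intervals of Mx1 and Isg15 lie above 0 before adjustment, the GTPases run from -0.12 (Irgm2) to 0.091 (Irgm1), and Ifi44 was not tested.

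Of the 3 signalling and transcription factors, Irf7 had the largest difference between genotypes and Irf9 the smallest. Irf9, the DNA-binding part of the complex, stood at 53.4 and 54.6 RPKM in cKO and at 55.5 and 54.2 RPKM in WT. Stat2, its partner, stood at 22.0 and 22.1 RPKM in cKO, against 20.1 and 20.4 RPKM in WT. The groups did not overlap for Stat2, whose libraries within a genotype were nearly equal, but the log2 fold change was only 0.12 (95% interval from -0.16 to 0.40). Irf7, which amplifies interferon production and is itself induced, stood at 36.3 and 31.0 RPKM in cKO and at 29.6 and 25.3 RPKM in WT. Its groups were also separate, and 17.4% of all genes were separate in this direction. The log2 fold change of Irf7 was 0.29 (standard error 0.15). It was 0.17 without cKO replicate 1 and 0.18 without WT replicate 2.

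Among the sensors, the helicases RIG-I and MDA5 had close means in the genotypes, while Dhx58 and Zbp1 stood higher in both cKO libraries without passing the test. Ddx58, which encodes the RNA helicase RIG-I, stood at 17.1 and 19.9 RPKM in cKO and at 16.9 and 19.9 RPKM in WT. Ifih1, which encodes MDA5, stood at 5.34 and 7.44 RPKM in cKO and at 5.27 and 7.37 RPKM in WT. For both helicases each cKO library was matched by a WT library at nearly the same level. The log2 fold changes were 0.0052 for Ddx58 (95% interval from -0.35 to 0.36) and 0.014 for Ifih1 (from -0.52 to 0.54). Dhx58, which encodes LGP2, a relative of RIG-I that lacks the signalling domain, stood at 12.4 and 10.001 RPKM in cKO and at 9.69 and 8.05 RPKM in WT, a log2 fold change of 0.30 (95% interval from -0.10 to 0.71) that was 0.16 without cKO replicate 1 and 0.18 without WT replicate 2. Zbp1, a sensor of Z-form nucleic acid, stood at 52.1 and 52.6 RPKM in cKO and at 47.1 and 45.5 RPKM in WT. For Dhx58 and Zbp1 the groups did not overlap, and 17.4% of all genes were separate and higher in cKO. The median log2 fold change of the 4 sensors was 0.094, and it ran from 0.034 without cKO replicate 2 to 0.17 without cKO replicate 1.

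The OAS enzymes sense double-stranded RNA and make the oligoadenylates that activate RNase L. Oas3 stood at 11.6 and 10.1 RPKM in cKO and at 10.7 and 8.92 RPKM in WT. Oas1a stood at 6.28 and 5.82 RPKM in cKO and at 5.81 and 5.42 RPKM in WT. The groups overlapped for Oas3, and for Oas1a the lower cKO library was barely above the higher WT library. Oasl1, an OAS-like protein that limits Irf7 translation in mice, had 3.40 and 2.59 RPKM in cKO and 3.28 and 4.18 RPKM in WT, a log2 fold change of -0.24 with overlapping groups, which was -0.097 without cKO replicate 2 and -0.11 without WT replicate 2. Eif2ak2, the kinase PKR, stood at 9.45 and 11.3 RPKM in cKO and at 8.79 and 9.46 RPKM in WT, with the lower cKO library just under the higher WT library. Oas2 and Oasl2 averaged 5.50 and 3.89 RPKM in cKO and 4.95 and 3.33 RPKM in WT, with overlapping groups. Of these genes, 5 of the 6 had a positive log2 fold change, against 59.2% of all genes. The median was 0.13, and the groups were separate for 1, near the 17.4% of all genes. The median was 0.012 without WT replicate 2. Reads of the near-identical Oas1 genes may be shared, so the level of Oas1a is uncertain.

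The antiviral effectors held the gene of lowest p. Mx1 stood at 3.49 and 3.42 RPKM in cKO and at 2.60 and 2.17 RPKM in WT. The cKO libraries were nearly equal and both higher, with a ratio of 1.45 between the means, a log2 fold change of 0.40 (standard error 0.15) and limma's unadjusted p of 0.0357. Mx2 stood at 1.46 and 1.88 RPKM in cKO and at 0.952 and 1.27 RPKM in WT, a ratio of 1.503 with separate groups. These levels rested on few reads, an estimated 67 and 97 in cKO and 45 and 59 in WT for Mx2. Mx1 and Mx2 are dynamin-like GTPases that block viral replication, and in most laboratory mouse strains both genes are defective; RefSeq lists both as transcribed pseudogenes in GRCm38.p6.

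The more abundant effectors did not share a direction. Samhd1, a phosphohydrolase that depletes the nucleotides needed for reverse transcription, stood at 209.8 and 219.7 RPKM in cKO, against 245 and 242 RPKM in WT. Both cKO libraries were lower, with a log2 fold change of -0.18 (95% interval from -0.48 to 0.12). Bst2, the tetherin that holds budding virions at the membrane, stood at 76.7 and 60.0 RPKM in cKO and at 70.8 and 65.1 RPKM in WT, so the cKO libraries lay on either side of the WT libraries. Isg20, an RNA exonuclease, stood at 30.5 and 25.6 RPKM in cKO and at 31.0 and 18.4 RPKM in WT. Its WT libraries were further apart than the genotypes, and its direction turned when WT replicate 2 was left out, with a log2 fold change of -0.15 against 0.22 with all 4 libraries.

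The IFIT proteins bind viral RNA. Ifit2 averaged 13.8 ± 1.63 RPKM in cKO and 12.4 ± 0.082 RPKM in WT (SD, n = 2 each), Ifit1 averaged 8.21 RPKM in cKO and 7.11 RPKM in WT, and Ifit3 averaged 5.09 RPKM in cKO and 3.93 RPKM in WT. The groups were separate for Ifit2 and overlapped for Ifit1 and Ifit3. Rsad2, which encodes viperin, averaged 1.69 RPKM in cKO and 1.58 RPKM in WT, and its neighbour Cmpk2 averaged 5.10 RPKM in cKO and 4.79 RPKM in WT, both with overlapping groups. Over the 10 effectors, 8 had a positive log2 fold change, against 59.2% of all genes. Their median was 0.16, which was 0.064 without WT replicate 2. The groups were separate for 4 of them, Mx1, Mx2 and Ifit2 higher (30%, against 17.4% of all genes) and Samhd1 lower in cKO (near the 9.04% of all genes).

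The IRG and GBP GTPases, which act on the vacuoles of intracellular pathogens, had fold changes near 0, most of them below it. Of the 8, only Irgm1 and Iigp1 had a positive log2 fold change, the median was -0.072, and the groups overlapped for 7. The median was 0.0098 without cKO replicate 1, so its sign was not fixed. Of 9 further GBP and Tgtp genes in the wider pathway list, 6 had a positive log2 fold change (Gbp4, Gbp6, Gbp9, Gbp10, Gbp11 and Tgtp1). Ifi47 stood at 103 and 107 RPKM in cKO and at 106 and 114 RPKM in WT. Igtp stood at 96.3 and 99.9 RPKM in cKO and at 95.01 and 106 RPKM in WT. For both, the ranges of the genotypes overlapped. Irgm2, which lies next to Igtp on chromosome 11 (58214977 to 58222783), stood at 30.6 and 31.2 RPKM in cKO, against 32.1 and 35.5 RPKM in WT. It was the only GTPase of the 8 with separate groups (12.5%, against 9.04% of all genes separate and lower in cKO). The 95% interval of Irgm2 ran from -0.43 to 0.18.

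The GBP genes of the set, Gbp7 (142530336 to 142550151), Gbp3 (142560016 to 142573213) and Gbp2 (142620663 to 142638008), lie in this order on chromosome 3. Gbp7 stood at 33.9 and 43.6 RPKM in cKO and at 38.6 and 42.6 RPKM in WT. Gbp2 stood at 32.9 and 39.8 RPKM in cKO and at 37.0 and 41.3 RPKM in WT. In each of the 2 genes the libraries numbered 1 were the lower ones in both genotypes, and the genotypes overlapped. Gbp3 averaged 24.2 ± 1.65 RPKM in cKO and 25.5 ± 0.852 RPKM in WT (SD, n = 2 each), and Irgm1 averaged 40.5 ± 2.80 RPKM in cKO and 38.0 ± 3.74 RPKM in WT (SD, n = 2 each). Iigp1 averaged 28.7 ± 8.35 RPKM in cKO and 27.1 ± 3.37 RPKM in WT (SD, n = 2 each). The IRG and GBP families hold near-identical copies, and the sources used here do not say how the authors divided reads between them, so single levels are uncertain.

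In the ISG15 system the modifier and its protease stood higher in both cKO libraries, and the ubiquitin ligases and PARPs did not. Isg15, a ubiquitin-like modifier, stood at 18.2 and 17.0 RPKM in cKO, against 13.7 and 14.4 RPKM in WT. Both cKO libraries were higher, by a ratio of 1.25 between the means, with a log2 fold change of 0.31 (standard error 0.12) and limma's unadjusted p of 0.0428. Isg15 is the gene whose printed promoter holds 3 overlapping ISRE cores, and it rested on an estimated 262 and 275 reads in cKO and 201 and 207 reads in WT. Usp18, the protease that removes Isg15 from proteins and damps the receptor, stood at 19.4 and 18.4 RPKM in cKO and at 16.8 and 17.6 RPKM in WT, a log2 fold change of 0.13 with separate groups. Neither passed the adjusted test, and 17.4% of all genes were separate and higher in cKO.

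Dtx3l and Parp9, a ubiquitin ligase and its partner encoded side by side on chromosome 16 (35926515 to 35939027 and 35938470 to 35972621), overlap at their ends, and the sources used here do not say whether counting used the strand, so reads of the shared stretch cannot be told apart. Dtx3l stood at 30.8 and 35.7 RPKM in cKO and at 32.3 and 35.3 RPKM in WT. Parp9 stood at 20.7 and 23.9 RPKM in cKO and at 21.9 and 22.8 RPKM in WT. In both, the cKO libraries lay on either side of the WT libraries, and the means differed by less than their SD. Parp14, a mono-ADP-ribosyltransferase of the same locus (35831892 to 35871518), stood at 34.7 and 38.1 RPKM in cKO and at 35.4 and 41.0 RPKM in WT. Trim25, a ubiquitin ligase that acts on RIG-I, averaged 18.5 ± 1.10 RPKM in cKO and 19.997 ± 0.469 RPKM in WT (SD, n = 2 each), with both cKO libraries lower. The median log2 fold change of the 6 genes was -0.014, and it was 0.086 without cKO replicate 1 and 0.037 without WT replicate 2, so its sign was not fixed.

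The 7 tested genes of the last group all had a positive log2 fold change, their median was 0.18, and 5 had separate groups, against 59.2% of all genes with a positive value and 17.4% separate and higher in cKO. The median was 0.15 without WT replicate 2 and 0.30 without WT replicate 1. Ifi27l2a, a small membrane protein, stood at 196 and 190.2 RPKM in cKO and at 180.4 and 139 RPKM in WT. Lgals3bp, a secreted glycoprotein, stood at 46.6 and 44.9 RPKM in cKO and at 41.1 and 36.6 RPKM in WT. Trafd1, a feedback inhibitor of innate signalling, stood at 20.3 and 18.3 RPKM in cKO and at 17.1 and 14.6 RPKM in WT. In each of these 3 genes WT replicate 2 was the lowest library, and the log2 fold changes were 0.29, 0.23 and 0.27, with standard errors of 0.16, 0.13 and 0.14. Sp100, a nuclear body protein, stood at 94.7 and 119 RPKM in cKO and at 87.9 and 109 RPKM in WT, with overlapping groups. Rtp4 and Xaf1 were separate and higher in cKO, at 18.8 and 7.97 RPKM in cKO against 16.6 and 7.33 RPKM in WT. Ifi35 overlapped, at 37.2 RPKM in cKO and 34.5 RPKM in WT. Ifi44, not tested, averaged 0.412 RPKM in cKO and 0.498 RPKM in WT with overlapping groups.

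Libraries of one genotype also differed from each other, and the counts by role are given as a description with no test. Of the 8 GTPases, 7 were higher in replicate 2 than in replicate 1 in both genotypes (87.5%), against 39.4% of all genes tested, and the exception was Gbp3. Ifih1 and Ddx58 shared that direction, as did Sp100, Parp14 and Dtx3l. The opposite direction, lower in replicate 2 in both genotypes, was found for 5 of the 10 antiviral effectors, near the 38.1% of all genes, and for 5 of the 7 other interferon-induced genes tested (71.4%). The remaining groups were mixed, with 2 higher and 1 lower of 4 sensors, 1 and 1 of 3 signalling factors, 1 and 3 of 6 in the OAS and PKR group, and 3 and 1 of 6 in the ISG15 group. Isg20, Bst2, Ifi27l2a and Trafd1 were lower in replicate 2 in both genotypes, as were Irf7 and Dhx58. For 21 of the 44 genes (47.7%) the mean difference between replicate numbers exceeded that between genotypes, against 67.5% of all genes tested. The GTPases summed to 381 and 424 RPKM in cKO replicates 1 and 2, against 395 and 435 RPKM in WT replicates 1 and 2. The labels do not say that a number marks a shared day or batch. Same-numbered libraries deviated together over all genes tested (correlation 0.51 over 10632 genes), and the reason was not tested.

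**Figure D3:**
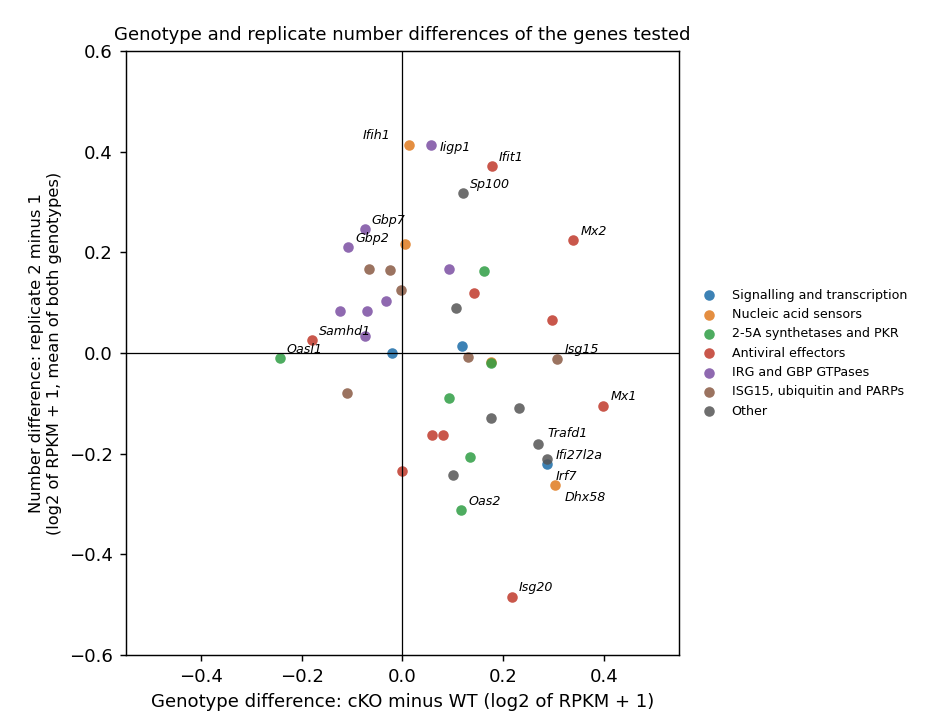
Genotype difference (cKO minus WT, horizontal) against the difference between replicate 2 and replicate 1 (mean of both genotypes, vertical), both in log2 of RPKM + 1, for the 44 genes tested, coloured by role. The GTPases lie above the horizontal line and near the vertical one, while Mx1, Mx2 and Isg15 lie farthest to the right, between 0.31 and 0.40, with Dhx58 beside them at 0.30.

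None of the receptors, kinases and factors upstream of these genes passed the test, and most overlapped between genotypes. Ifnar1 stood at 33.6 and 33.5 RPKM in cKO and at 32.8 and 33.9 RPKM in WT, and Ifnar2 at 35.2 and 30.6 RPKM in cKO and at 31.8 and 30.1 RPKM in WT. The transcription factor Irf1 averaged 109.8 RPKM in cKO and 112 RPKM in WT, Irf3 averaged 49.96 RPKM in cKO and 49.1 RPKM in WT, and the inhibitor Socs1 averaged 109 RPKM in cKO and 105 RPKM in WT. The groups overlapped for each of these 5 genes. Jak1, a kinase shared by both receptors, stood at 115 and 132 RPKM in cKO, against 135 and 147 RPKM in WT, lower in both cKO libraries (95% interval of the log2 fold change from -0.52 to 0.14). Stat3, Irf2 and Irf8 were also lower in both cKO libraries, with log2 fold changes of -0.11 for Stat3, -0.11 for Irf2 and -0.21 for Irf8. Ifngr2 was higher in both, with 0.059. Of all genes, 9.04% were separate and lower in cKO and 17.4% separate and higher. Interferon gamma itself, Ifng, was low, at 1.59 and 2.96 RPKM in cKO and 1.995 and 2.08 RPKM in WT. The 6 type I and type III interferon genes listed were not analysed here.

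Of 99 further genes of the pathway listed, 85 were tested with limma and 0 passed, 2 had an unadjusted p under 0.05, the median log2 fold change was 0.026, and 51 were above 0 (60%). These values are near those of all genes, of which 3.12% had such a p and 59.2% were above 0, with a median of 0.029. The receptor and kinase list had 4 of 7 above 0, the list of other STATs, IRFs and inhibitors 4 of 10, the sensing adaptors 7 of 10 and the other interferon-induced genes 35 of 57. The 2 genes with an unadjusted p under 0.05 differed in direction. Ifitm2, a membrane protein that restricts viral entry, stood at 6.14 and 5.85 RPKM in cKO, against 3.43 and 3.50 RPKM in WT, a ratio of 1.73 (log2 fold change 0.65, standard error 0.13, limma's unadjusted p of 0.0032). It was higher in both cKO libraries, and Ifitm3, a close relative in sequence, was not separated (3.12 RPKM in cKO, 2.91 RPKM in WT). Ifngr1, the ligand-binding chain of the interferon gamma receptor, stood at 64.9 and 61.6 RPKM in cKO, against 80.0 and 128 RPKM in WT, a log2 fold change of -0.67 (standard error 0.23). WT replicate 2 was far above the other 3 libraries.

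The next genes by p were Sp110, Cxcl10, Ly6e and Uba7. Sp110, a relative of Sp100, stood at 67.7 and 66.6 RPKM in cKO and at 58.5 and 50.7 RPKM in WT. Cxcl10, a chemokine that attracts T cells, stood at 3.33 and 3.58 RPKM in cKO and at 2.89 and 2.06 RPKM in WT. Uba7, the activating enzyme for Isg15, stood at 57.1 and 49.3 RPKM in cKO and at 47.1 and 40.2 RPKM in WT. These 3 genes were higher in both cKO libraries. Ly6e, a lipid-anchored surface protein, was lower in both, with 519.7 and 518 RPKM in cKO and 669 and 583 RPKM in WT. For each of the 4 genes the 95% interval of the log2 fold change included 0.

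Most marker transcripts of other cell types were low, and their sums differed between libraries. The 5 B cell markers measured (Cd79a, Cd79b, Cd22, Blk and Fcmr) summed to 12.3 and 11.3 RPKM in cKO and to 9.42 and 7.30 RPKM in WT. Both cKO libraries were higher in this sum. Counted as single genes, 34.1% of the interferon-stimulated genes tested and 17.4% of all genes were separate in this direction. Cd79b alone stood at 8.03 and 7.14 RPKM in cKO and at 5.56 and 4.23 RPKM in WT. Its log2 fold change was 0.55 (95% interval from 0.14 to 0.96), with limma's unadjusted p of 0.0170 and adjusted p of 0.9998. Of the 5, Cd79a, Cd79b and Cd22 were separate and higher in cKO, Blk and Fcmr overlapped, and none was at 0, while Ms4a1 and Pax5 were not analysed here. The 10 macrophage, monocyte and dendritic cell markers measured summed to 26.1 and 9.23 RPKM in cKO and to 9.91 and 13.9 RPKM in WT, with cKO replicate 1 apart. The 5 erythroid markers measured summed to 43.0 and 7.37 RPKM in cKO and to 24.4 and 11.5 RPKM in WT, and the 6 CD8 T and NK markers measured summed to 22.2 and 23.5 RPKM in cKO and to 24.2 and 21.4 RPKM in WT, both with overlapping groups. The 6 plasmacytoid dendritic cell markers summed to 90.4 and 74.3 RPKM in cKO and to 87.4 and 80.2 RPKM in WT, with overlapping groups. Bst2, itself one of the interferon-stimulated genes, had a mean of 68.1 RPKM among them, and Irf8 9.28 RPKM. Siglech was the lowest of the 6, between 0.086 and 0.131 RPKM in all 4 libraries. The part of transcripts of other cell types in these differences was not tested.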

How the data were processed

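RNA of sorted Treg cells was sequenced as single-end reads, per the labels' protocols. The deposited values are RPKM per transcript, 1 table per library. The submitters' processing notes name HISAT2, DESeq2 and mm10, with no role or version. The sources used here do not give the annotation or the treatment of multimapping reads and strand. RPKM is relative to the reads mapped in a library, so each value depends on all other transcripts.

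The tables held 19291 transcript rows. Rows were named through RefSeq (GRCm38.p6) by accession (16720) or by name (1252), and 1319 rows without a gene name, 11.2% of the RPKM sum, were left out. Each of 14043 genes was represented by its transcript row of highest mean. Depth was read from the steps of low values, of which 64.9% to 66.9% lay within 0.1 of a whole read, so whole reads were not recovered for a count test. Libraries of 1 genotype differed by more than counting noise: the median squared difference was 6.09 times its counting variance in cKO and 4.74 times in WT, against 0.455 from counting alone. Read numbers printed are estimates from that depth.

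The 10632 genes whose mean reached 1 RPKM were tested on log2(RPKM + 1), which understates the change of low genes, with limma 3.58.1 in R 4.3.3 (trend, robust, no term besides genotype), with p-values adjusted over all of them by Benjamini-Hochberg, and a gene was called at an adjusted p under 0.05. The fit was run on simulated data with known changes, as a check of the code. The simulated libraries were drawn independently of each other, so the check does not show what the fit misses in these data. Python 3.11.15, pandas 2.3.3 and matplotlib 3.10.9 were used for tables and figures. Genes named in full were the 3 of highest mean and the 2 of lowest p in each role group, and the 6 further pathway genes of lowest p, with receptors and central factors; other genes were added to complete their group. The members and lists were chosen with earlier results of these data known. Alternatives were no filter, a mean of at least 4 RPKM, a pseudocount of 0.1, median-of-ratios scaling, sums over transcript rows, a replicate block, no trend or robust moderation, and leaving out each library.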

Additional observations from a re-analysis of the deposited data

How the results depend on the processing

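No interferon-stimulated gene passed the threshold in any of the 11 alternatives that tested it; Oasl1, Oasl2, Mx1, Mx2 and Rsad2 were not tested with a mean of at least 4 RPKM. Over all genes, limma called 0, against 1 with the replicate block and 31 to 65 with 1 library left out (31 and 63 when cKO replicate 1 or cKO replicate 2 was omitted, 65 and 38 when WT replicate 1 or WT replicate 2 was), where the lone library is assumed to vary like the others; the cause was not tested. Same-numbered libraries deviated together (correlation 0.51 over 10632 genes), but the labels do not say that numbers mark a shared day or litter. The median of the 44, 0.10, was 0.068 with median-of-ratios scaling and 0.051 to 0.11 with 1 library left out. With only the genes in the gene column, an alternative added after seeing the data, the median was 0.099 and 28 were above 0. The signalling median was 0.081 with median-of-ratios scaling. With 1 library left out, medians ran from 0.034 to 0.17 for sensors, 0.012 to 0.18 for the OAS and PKR group, 0.064 to 0.17 for effectors, -0.14 to 0.0098 for GTPases, -0.077 to 0.086 for the ISG15 group and 0.15 to 0.30 for the other genes. Of the 29 members named for their mean or p within their role group, 19 kept their direction in every alternative that tested them. Ifih1, also printed for each library, was not in this count. Ddx58 turned with median-of-ratios scaling (-0.031). With 1 library left out, Ddx58 ran from -0.11 to 0.12, Isg20 from -0.15 to 0.58, Bst2 from -0.18 to 0.17, Igtp from -0.11 to 0.045, Gbp2 from -0.24 to 0.025, Gbp7 from -0.25 to 0.10, Parp9 from -0.10 to 0.095, Dtx3l from -0.13 to 0.080, Parp14 from -0.17 to 0.036 and Sp100 from -0.046 to 0.28. With 2 pools a genotype, differences under about the widths of the intervals printed were not resolved, and genes near 1 RPKM rest on few reads.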

Other observations

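The ISRE core was present in 3 of the 8 genes with a promoter whose cKO libraries both lay above both WT libraries, and in 14 of the 25 other tested genes with a promoter. These counts are a description of the letters in the window and carry no test.

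Ifi203, an interferon-inducible protein of the AIM2-like family, was picked after its values were seen because its libraries differed by number more than by genotype. It stood at 40.8 and 66.6 RPKM in cKO replicates 1 and 2 and at 47.5 and 82.2 RPKM in WT replicates 1 and 2. The replicate 2 library was the higher one in each genotype, and the genotypes overlapped.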
